A study of Arabidopsis thaliana with 22 samples.

Results

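accD and clpP are plastid genes that leaf cells cannot do without and that have no part in photosynthesis itself. They were taken by name from a RefSeq gene table and are 2 of the 112 plastid genes analysed. Accessibility was measured by ptATAC-seq, in which the transposase Tn5 inserts adapters into open DNA and the insertions are counted at each position of the plastid genome. Nucleoids, in which plastid DNA is packed with proteins, were compared with naked plastid DNA, the background measured the same way. Every library was made from chloroplasts of rosette leaves of the wild-type Arabidopsis thaliana ecotype Col0 grown on soil, fixed with formaldehyde per the labels' protocols. How the naked DNA was freed of protein is not given in the sources used here. There were 11 libraries labelled Nucleoid and 11 labelled Naked. At all 154477 positions the columns of nucleoid replicates 9 and 10 were identical, so they differed by less than the sampling noise and were counted as 1 sample, which left 10 nucleoid and 11 naked libraries. No label says that replicates came from separate plants, so p-values measure the spread between these libraries, which may be technical.

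accD encodes a subunit of the plastid acetyl-CoA carboxylase, which makes malonyl-CoA for fatty acid synthesis; the other subunits are encoded in the nucleus. clpP encodes a catalytic subunit of the Clp protease, which degrades proteins in the stroma together with subunits made in the nucleus. Plastid genes are read by a bacterial-type polymerase encoded in the plastid and by a phage-type polymerase encoded in the nucleus, and both accD and clpP are known for transcription by the nucleus-encoded enzyme. accD lies between rbcL, the gene of the large Rubisco subunit, and psaI, a small photosystem I gene, and is read in the same direction as both. clpP is read from the opposite strand, away from psbB, the gene of a photosystem II core antenna protein, and towards an exon of rps12, a gene of a small-subunit ribosomal protein. clpP has introns. The gene table used gives gene limits alone, so exons and introns of clpP were counted together.

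Nucleoid libraries held 202725 to 1813905 counts, with a median of 1158971, and naked libraries held 105763 to 1195649, with a median of 527624. Depth therefore differed between the fractions, and 8 nucleoid and 5 naked libraries had more than 600000 counts. Signal is the mean count per position as a percent of the genome mean of the same library, so that 100 is the genome mean. The fractions are therefore compared in how insertions are spread over the genome, and not in total accessibility. Naked replicates 9, 10 and 11 stood apart. Their signal was the most uneven along the genome (SD of log2 signal over 200 bp windows of 1.43, 1.36 and 1.63). Fold changes were therefore also computed among the libraries with more than 600000 counts, called deep libraries here, and without these 3. These 3 are not deep libraries, so both checks leave them out and overlap. In the 2 nucleoid and 6 naked libraries below that depth, accD had 87.3 and 94.8 in nucleoids and 73.6 to 87.9 in naked DNA, and clpP had 69.9 and 73.1 in nucleoids and 58.5 to 76.5 in naked DNA.

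Signal at accD was close to the genome mean and slightly higher in nucleoids. Over the accD gene, nucleoid libraries ranged from 87.3 to 98.2 with a median of 94.8, and naked libraries ranged from 73.6 to 95.1 with a median of 87.9. The fractions overlapped, with 3 nucleoid libraries above every naked library and 5 naked libraries below every nucleoid library. The means were 94.3 ± 3.0 in nucleoids (SD, n = 10) and 87.0 ± 6.2 in naked DNA (SD, n = 11). Each fold change is the difference between the mean log2(signal + 1) values of the fractions, nucleoid minus naked, and so need not equal the log2 ratio of the printed means. For accD it was 0.12 (SE 0.04, 95% interval 0.027 to 0.21) and passed the threshold of 0.05 (limma, adjusted p = 0.0407, higher than the naked median in 9 of 10 nucleoid libraries). Of the 112 genes, 33.9% were called in either direction, 9.82% higher and 24.1% lower, and the median fold change of all genes was 0.10. The accD fold change was thus near that of the median gene and stood at place 54 of 112 from the top.

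The accD call was lost in several other sets of libraries and with other scaling. Among libraries with more than 600000 counts the fold change was 0.046 (limma, adjusted p = 0.309), and without naked replicates 9, 10 and 11 it was 0.084 (adjusted p = 0.086). In the deep libraries accD had 95.1 ± 2.0 in nucleoids (SD, n = 8) and 92.1 ± 2.4 in naked DNA (SD, n = 5). The call was also lost without any 1 of nucleoid replicates 1, 2 and 4 to 9 or naked replicates 6, 7, 8, 10 and 11, with fold changes of 0.094 to 0.12 and adjusted p from 0.0563 to 0.0735. With each library scaled to the median of its 200 bp windows, which took the median of all genes to -0.051, the fold change was -0.035 (adjusted p = 0.63).

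Signal at clpP was lower than at accD in both fractions, and its difference between them did not pass the threshold. Nucleoid libraries ranged from 69.9 to 88.2 with a median of 81.3, and naked libraries ranged from 58.5 to 87.4 with a median of 75.0. The ranges largely overlapped, with 1 nucleoid library above all naked ones and 4 naked libraries below all nucleoid ones. The means were 79.8 ± 5.6 in nucleoids (SD, n = 10) and 73.3 ± 8.7 in naked DNA (SD, n = 11). The fitted log2 fold change was 0.13 (SE 0.07, 95% interval -0.0083 to 0.26; limma, adjusted p = 0.112), with 8 of 10 nucleoid libraries above the naked median. It was 0.030 among deep libraries (adjusted p = 0.759), where nucleoids had 81.9 ± 3.9 (SD, n = 8) and naked DNA had 80.3 ± 5.2 (SD, n = 5). By mean signal, accD was gene 65 of 112 in nucleoids and 71 in naked DNA, and clpP was gene 85 in nucleoids and 86 in naked DNA.

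**Figure D1:**
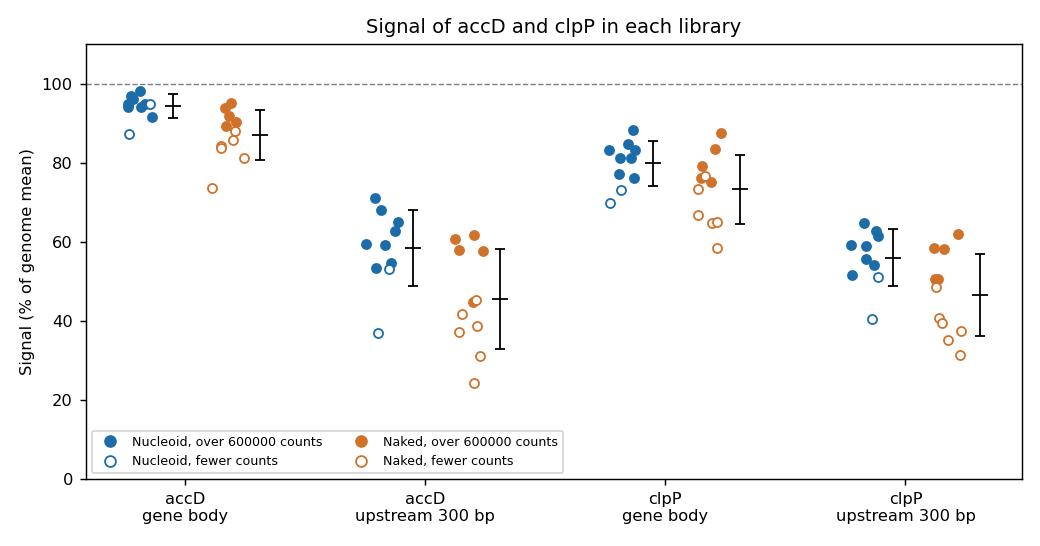
Signal (percent of the genome mean, y axis) of the accD and clpP gene bodies and of the 300 bp upstream of each, 1 point per library, with nucleoid libraries left of naked ones. Filled points had more than 600000 counts, black marks are means ± SD (n = 10 nucleoid, n = 11 naked), and the dashed line is the genome mean. Nucleoid means lie above naked means at all 4 features, and the lowest points are shallow libraries.

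accD had more signal than clpP in every library of both fractions. The log2 ratio of accD to clpP signal within a library ranged from 0.12 to 0.37 in nucleoids and from 0.029 to 0.39 in naked DNA. Its mean was 0.24 ± 0.08 in nucleoids (SD, n = 10) and 0.25 ± 0.12 in naked DNA (SD, n = 11), so a difference between fractions was not detectable against the spread. The difference was -0.010 (permutation test, two-sided, p = 0.826, adjusted over 3 ratios 0.826), with 4 of 10 nucleoid libraries above the naked median. This ratio does not depend on how libraries are scaled, apart from the added 1.

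Upstream DNA had less signal than the gene in both cases. Low signal was not limited to the upstream side: the 300 bp downstream of accD had means of 57.4 in nucleoids and 48.3 in naked DNA. Downstream of clpP the means were 76.1 and 82.3. In the 300 bp upstream of accD, nucleoid libraries ranged from 37.1 to 71.2 with a median of 59.4, and naked libraries ranged from 24.4 to 61.6 with a median of 44.8. Here 4 nucleoid libraries lay above every naked one. The means were 58.4 ± 9.7 in nucleoids (SD, n = 10) and 45.6 ± 12.5 in naked DNA (SD, n = 11). The fitted log2 fold change of 0.38 (SE 0.15) did not pass the threshold (limma over 223 flanks of 300 bp, adjusted p = 0.0642, unadjusted p = 0.0178; 9 of 10 above the naked median). Of these flanks, 12.6% were called in either direction, 6.73% higher and 5.83% lower, and 52% had an unadjusted p under 0.05. Their median fold change was 0.21. Among deep libraries the accD value was 0.13 (adjusted p = 0.382), and without naked replicates 9, 10 and 11 it was 0.19 (adjusted p = 0.286). Those 3 libraries had 24.4 to 37.3, whereas naked replicates 1 to 8 had 38.7 to 61.6. This difference did pass without nucleoid replicate 11 or any 1 of naked replicates 1 to 4 (0.42 to 0.45, adjusted p from 0.0273 to 0.0475).

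In the 300 bp upstream of clpP, which lies between clpP and psbB, nucleoid libraries ranged from 40.6 to 64.8 with a median of 57.4, and naked libraries ranged from 31.3 to 62.1 with a median of 48.7. Here 2 nucleoid libraries lay above all naked ones. The means were 56.1 ± 7.1 in nucleoids (SD, n = 10) and 46.7 ± 10.4 in naked DNA (SD, n = 11). The fitted log2 difference was 0.28 (SE 0.12; limma, adjusted p = 0.0674, unadjusted p = 0.0242; 9 of 10 above). Among deep libraries it was 0.066 (adjusted p = 0.594). Without nucleoid replicate 11 or any 1 of naked replicates 1 to 3 it passed (0.31 to 0.33, adjusted p from 0.0336 to 0.0417).

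The DNA next to the clpP start had the lowest signal. In the 150 bp upstream of clpP the means were 35.5 ± 8.8 in nucleoids (SD, n = 10) and 23 ± 10.9 in naked DNA (SD, n = 11). The ranges were 15.2 to 46.4 in nucleoids and 7.96 to 41.3 in naked DNA, and 3 nucleoid libraries exceeded every naked one. The log2 fold change was 0.70 (SE 0.25, limma over 223 flanks of 150 bp, adjusted p = 0.041, 9 of 10 above the naked median). Over those flanks the median was 0.27, and 28.7% were called, 21.1% higher and 7.62% lower. It was 0.34 among deep libraries (adjusted p = 0.212), 0.37 with depth as a covariate (adjusted p = 0.259), 0.44 without naked replicates 9, 10 and 11 (adjusted p = 0.195) and 0.56 with median scaling (adjusted p = 0.0558). The call was lost without any 1 of nucleoid replicates 1 to 8 or naked replicates 7, 9, 10 and 11 (adjusted p from 0.0526 to 0.0743). The lowest library held 16 counts there, so single values are coarse. In the 150 bp upstream of accD the means were 76.3 ± 13.6 in nucleoids (SD, n = 10) and 64.1 ± 18.2 in naked DNA (SD, n = 11), and the fold change of 0.28 did not pass (adjusted p = 0.144).

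The contrast between gene and upstream DNA was smaller in nucleoids, by an amount that missed the threshold after adjustment. The log2 ratio of accD to its 300 bp upstream was 0.70 ± 0.22 in nucleoids (SD, n = 10) and 0.97 ± 0.33 in naked DNA (SD, n = 11), a difference of -0.27 (permutation test, two-sided, p = 0.0454, adjusted 0.0681). Of the nucleoid libraries, 1 of 10 lay above the naked median. For clpP the ratio was 0.51 ± 0.12 in nucleoids (SD, n = 10) and 0.66 ± 0.17 in naked DNA (SD, n = 11), a difference of -0.15 (permutation p = 0.0334, adjusted 0.0681; 2 of 10 above). Among deep libraries the differences were -0.081 for accD and -0.036 for clpP (exact permutation test, adjusted p = 0.709 for both). Without nucleoid replicate 11 or any 1 of naked replicates 1 to 4 both ratios passed (accD -0.32 to -0.29, clpP -0.18 to -0.16, adjusted p from 0.0177 to 0.0495). With 150 bp upstream in place of 300, the clpP difference was -0.57 (permutation p = 0.0103, adjusted 0.0308) and the accD difference was -0.16 (adjusted p = 0.371). These 150 bp ratios were tested over all libraries only, not among deep libraries, with a depth covariate or without single libraries.

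Signal was resolved further in 50 bp windows, which the authors' TAIR10 positions of the plastid chromosome (Pltd) define. Of 78 windows in accD, clpP and their upstream DNA, 17 were called higher and 1 was called lower in nucleoids (limma over 3083 windows, adjusted p under 0.05). Across the genome 28.6% of windows were called in either direction, 17.1% higher and 11.5% lower, so that the 23.1% called among these 78 was no more than the background. Fold changes were above 0 in 65 of the 78, with a median of 0.23, against a median of 0.20 over all windows. The count was 2 among deep libraries, where 7.72% of all windows were called. Without naked replicates 9, 10 and 11 it was 6, with 16.8% of all windows called. It was 8 to 11, with 17.3% to 23.1% of all windows called, without any 1 of nucleoid replicates 1, 2 and 4 to 9 or naked replicates 7, 9 and 10, and 29 without nucleoid replicate 11 and 28 without naked replicate 3, with 39.2% and 38.6% of all windows called. With median scaling 7 windows were higher and 5 lower, with 24.7% of all windows called.

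Along accD, 6 of 29 gene windows were called higher and 1 lower, and 4 of 5 upstream windows were called higher. Of all windows, 17.1% were called higher and 11.5% lower. Among deep libraries the 4 upstream windows did not pass (limma, adjusted p from 0.0694 to 0.213). With depth as a covariate, those starting at Pltd 56801, 56851 and 57001 did not pass either (limma, adjusted p from 0.0988 to 0.23). With the gene cut into 3 equal parts from its start, 4 of 10, 2 of 10 and 0 of 9 windows were called higher, and the median fold changes were 0.32, 0.21 and 0.07. Signal was lowest in the first part: the window medians of the 3 parts were 83.9, 112 and 116 in nucleoids and 69.8, 96.3 and 108 in naked DNA. Pltd 57351 to 57400, the lowest window, had 26.8 ± 8.9 in nucleoids (SD, n = 10) and 14.6 ± 5.3 in naked DNA (SD, n = 11; fold change 0.82, SE 0.21, limma adjusted p = 0.0099), and its lowest library held 4 counts. Among deep libraries it was 0.57 (adjusted p = 0.0573), and with depth as a covariate it was 0.53 (adjusted p = 0.0572). The single highest window of the gene, Pltd 58001 to 58050, had 173 ± 17 in nucleoids (SD, n = 10) and 193 ± 42 in naked DNA (SD, n = 11; -0.13, limma adjusted p = 0.348).

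The window called lower was its neighbour, Pltd 58051 to 58100. Nucleoid libraries ranged there from 98.3 to 137 with a median of 123, and naked libraries ranged from 136 to 223 with a median of 155. In that window 10 of 11 naked libraries lay above every nucleoid library. Nucleoid over naked was -0.38 on the log2 scale (SE 0.09, limma, adjusted p = 0.00745, 0 of 10 nucleoid libraries above the naked median). It kept its call when any 1 library was left out (adjusted p up to 0.018), with depth as a covariate (-0.29, adjusted p = 0.0363) and without naked replicates 9, 10 and 11 (-0.30, adjusted p = 0.0193). In the deep libraries it was -0.24, with an adjusted p of 0.0811.

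Upstream of accD, the window with the smallest adjusted p was Pltd 56901 to 56950. Nucleoid libraries ranged there from 52.7 to 81.1 with a median of 67.4, and naked libraries ranged from 20.9 to 62 with a median of 39.4. Every nucleoid library lay above the naked median, and 7 of 10 lay above every naked library. On the log2 scale the difference was 0.75 (SE 0.18, limma, adjusted p = 0.00636). It remained past the threshold with depth as a covariate (0.50, adjusted p = 0.0319) and without naked replicates 9, 10 and 11 (0.59, adjusted p = 0.0196), and it was 0.35 among deep libraries (adjusted p = 0.0727). The lowest library held 11 counts in it.

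**Figure D2:**
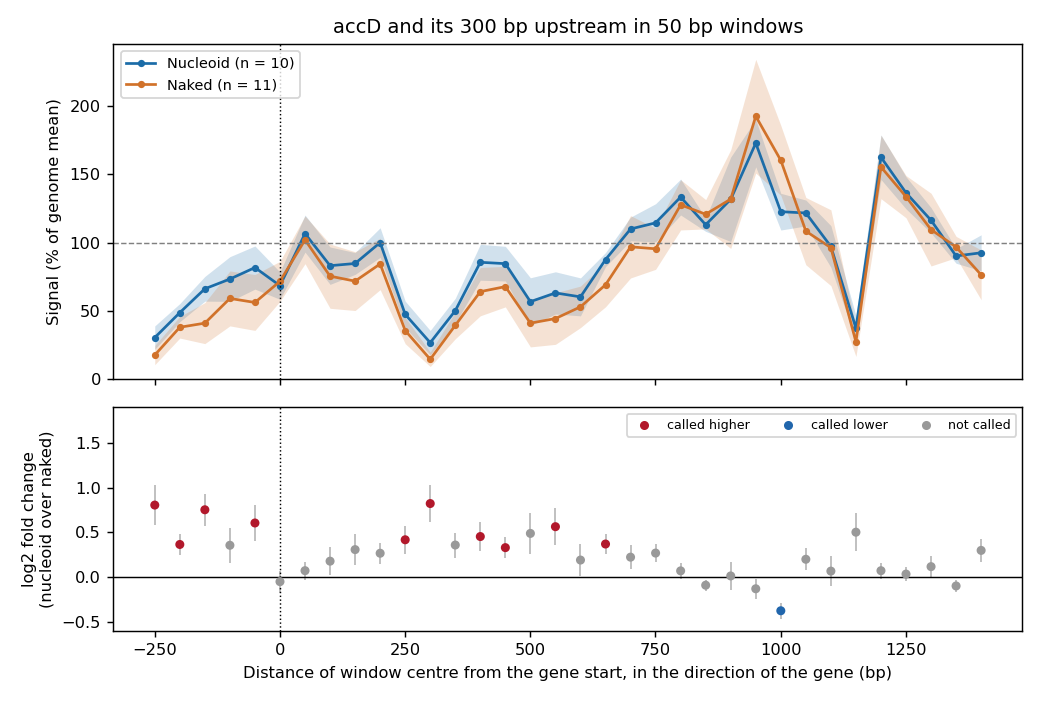
Upper panel, signal (percent of the genome mean) in 50 bp windows over accD and its 300 bp upstream by distance from the gene start in bp, with lines for means and bands for ± SD of 10 nucleoid and 11 naked libraries. Lower panel, log2 fold change of nucleoid over naked with its SE for the same windows. Called windows that are higher in nucleoids lie upstream and in the first parts of the gene, and 1 window late in the gene is lower.

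Along clpP, 6 of 39 gene windows and 1 of 5 upstream windows were called higher and 0 lower (limma). Of all windows, 17.1% were called higher and 11.5% lower. An unadjusted p under 0.05 was found in 13 of the 44, against 48.1% of all windows. From the gene start, its 3 equal parts had 3 of 14, 2 of 13 and 1 of 12 windows called higher, with median fold changes of 0.28, 0.14 and 0.07. The largest fold change was at Pltd 71401 to 71450. Nucleoid libraries ranged there from 16.8 to 53.5 with a median of 40.9, and naked libraries ranged from 4.48 to 33.1 with a median of 24.2. In this window 8 of 10 nucleoid libraries lay above every naked library, and the log2 fold change reached 1.01 (SE 0.28, limma, adjusted p = 0.0157). It passed among deep libraries (0.57, adjusted p = 0.0192) and without naked replicates 9, 10 and 11 (0.68, adjusted p = 0.0443), but not with depth as a covariate (0.61, adjusted p = 0.0994). The lowest library held 3 counts in this window.

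Pltd 70501 to 70550, in the last of these parts of clpP, was the other window that passed among deep libraries. It had 38.2 ± 12 in nucleoids (SD, n = 10) and 23.8 ± 6.4 in naked DNA (SD, n = 11), and 7 of 10 nucleoid libraries lay above every naked one. The fitted log2 fold change was 0.64 (SE 0.19; limma, adjusted p = 0.019) over all libraries and 0.68 among deep libraries (adjusted p = 0.0343). It missed the threshold without naked replicates 9, 10 and 11 (0.54, adjusted p = 0.0646) and with depth as a covariate (0.41, adjusted p = 0.122). Pltd 71701 to 71750, in the first part, was called over all libraries (0.36, limma, adjusted p = 0.0287). That window also passed with depth as a covariate (0.50, adjusted p = 0.00512). Its call was lost among deep libraries (0.34, adjusted p = 0.0825) and without naked replicates 9, 10 and 11 (0.30, adjusted p = 0.100).

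The clpP start lies beside a trough. Pltd 71951 to 72000, upstream of the gene, had the lowest signal of the 78 windows, 18.9 ± 7.7 in nucleoids (SD, n = 10) and 10.7 ± 8.2 in naked DNA (SD, n = 11), a fold change of 0.77 that did not pass (SE 0.51, limma adjusted p = 0.22). Nucleoid replicate 11 held 0 counts there, which allows a signal of up to 4.57 at its depth, for counting error only. Without that library the fold change was 1.21 and passed (adjusted p = 0.0127), whereas with depth as a covariate it was -0.13 (adjusted p = 0.788). Nearer to the gene, Pltd 71901 to 71950 was called higher, with 52.9 ± 8.8 in nucleoids (SD, n = 10) and 35.6 ± 20.5 in naked DNA (SD, n = 11; 0.77, SE 0.28, limma adjusted p = 0.044). Its call was lost in the deep libraries (0.38, adjusted p = 0.228), without naked replicates 9, 10 and 11 (0.47, adjusted p = 0.201) and with depth as a covariate (0.58, adjusted p = 0.202). It was also lost without any 1 of nucleoid replicates 1 to 9 or naked replicates 4, 7, 9, 10 and 11 (adjusted p from 0.0529 to 0.0794).

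**Figure D3:**
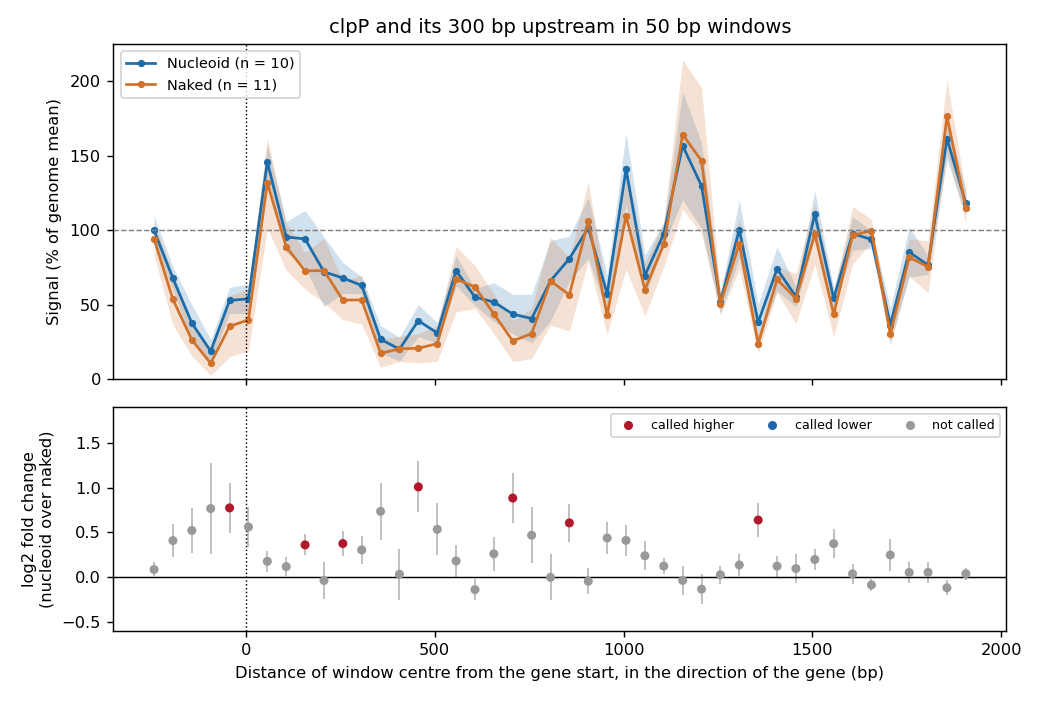
Upper panel, signal (percent of the genome mean) in 50 bp windows over clpP and its 300 bp upstream by distance from the gene start in bp, drawn in the direction of the gene, with means and ± SD bands for 10 nucleoid and 11 naked libraries. Lower panel, log2 fold change of nucleoid over naked with its SE. The profiles share their peaks and troughs, and the 7 called windows all have nucleoid and naked means under 100.

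Windows with little signal had the larger fold changes. All 17 windows called higher had means under 100 in both fractions, at most 94.2 in nucleoids and 72.7 in naked DNA. Of the 78 windows, 29 had a mean signal under 60, of which 10 were called higher with a median fold change of 0.49. Another 29 lay between 60 and 100, of which 7 were called higher with a median of 0.18. The 20 windows at 100 or above included 0 called higher and 1 called lower (limma), with a median of 0.05. Over all 3083 windows the same bands had 30.2%, 22.6% and 7.31% called higher, with medians of 0.63, 0.32 and -0.05. In the band at 100 or above, 22.2% of all windows were called lower. Spearman's rho of fold change with signal was -0.69 across the 78 windows and -0.72 across all windows. It is a description only, since the windows share libraries and both axes use the same counts. The greater unevenness of naked replicates 9, 10 and 11 and depth move with this pattern, and their part in it was not tested.

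**Figure D4:**
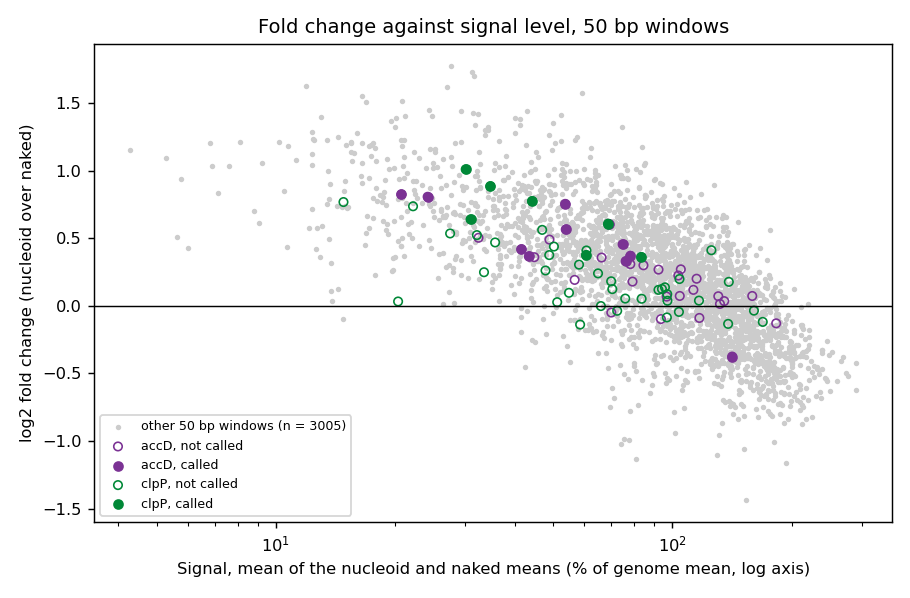
Log2 fold change of nucleoid over naked (y axis) against signal (x axis, log scale, the mean of the nucleoid and naked means in percent of the genome mean) for 50 bp windows. Windows of accD and clpP, filled where called, lie within the cloud of all other windows, and those called higher are all at a signal under 100.

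Most of the positions used most often were shared by the fractions. The position that ranked first differed between them in each gene, though each of these had high signal in both fractions. In accD the most used 5% of positions, 73 of 1467, held 30.2% of pooled nucleoid counts and 33.2% of pooled naked counts, and 60 of the 73 were the same positions. In clpP the top 99 of 1973 positions held 32.4% of nucleoid and 36.0% of naked counts, and 81 were shared. Across positions the mean signals of the fractions had Pearson's r of 0.94 in each gene, a description over positions read from the same libraries. The strongest single position in nucleoids was Pltd 57851 in accD, with 1236 ± 439 in nucleoids (SD, n = 10) and 1358 ± 444 in naked DNA (SD, n = 11). In clpP it was Pltd 71645, with 1320 ± 273 in nucleoids (SD, n = 10) and 837 ± 166 in naked DNA (SD, n = 11). The strongest position in naked DNA was another one in each gene, Pltd 58287 in accD, with 780 in nucleoids and 1418 in naked DNA, and Pltd 70247 in clpP, with 833 in nucleoids and 1289 in naked DNA. Single positions were picked by their values and were not tested. Positions with no insertion made up 11.5% of accD in nucleoids and 16.7% in naked DNA, and 12.1% of clpP in nucleoids and 19.9% in naked DNA. The pooled nucleoid libraries were the deeper ones.

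A chosen list of other genes known for transcription by the nucleus-encoded polymerase held rpoB, rpoC1 and rpoC2, which encode subunits of the plastid polymerase, and the long reading frames ycf1 and ycf2. The list may not be complete. Of these 5, 3 were called higher and 0 lower (limma; 2 did not pass), with a median fold change of 0.12, against 9.82% of all genes called higher and 24.1% called lower. The fold change was 0.12 for rpoC2 (SE 0.04, adjusted p = 0.0257), with 104 ± 5 in nucleoids (SD, n = 10) and 95.3 ± 5.0 in naked DNA (SD, n = 11). It was 0.12 for rpoC1 (SE 0.04, adjusted p = 0.0277) and 0.24 for ycf2 (SE 0.08, adjusted p = 0.0215), a gene with a copy in each inverted repeat, whose reads cannot be assigned to 1 copy. For ycf1 it was 0.49 (SE 0.20, adjusted p = 0.0698) and for rpoB 0.0035 (SE 0.04, adjusted p = 0.951). None of the 5 passed among deep libraries (limma, adjusted p from 0.303 to 0.851), as for accD and clpP. With median scaling the fold changes were 0.34 for ycf1, 0.088 for ycf2, -0.033 for rpoC2, -0.037 for rpoC1 and -0.15 for rpoB (adjusted p from 0.0893 to 0.646).

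**Figure D5:**
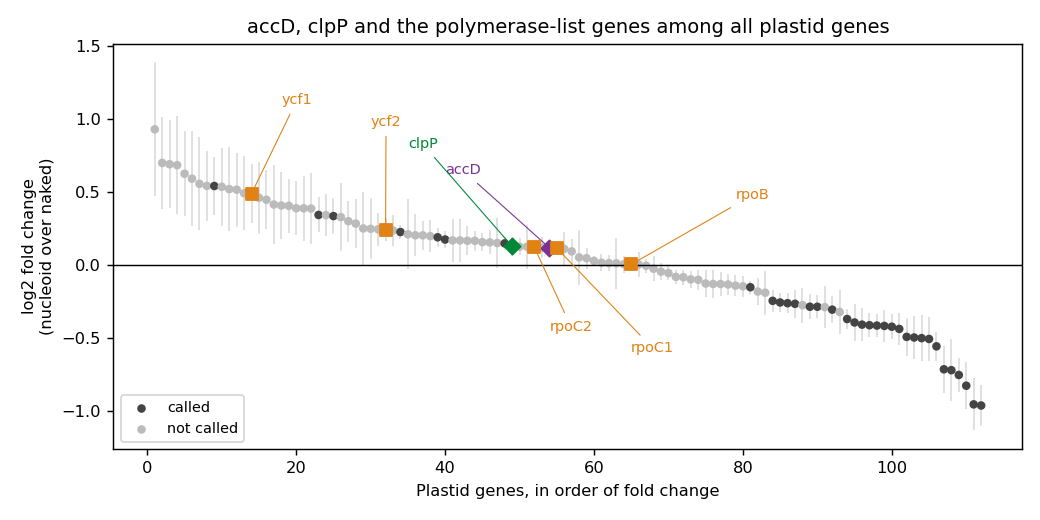
Log2 fold change of nucleoid over naked with its SE (y axis) for the 112 plastid genes in order of fold change (x axis). Round points are dark where called at an adjusted p under 0.05, and the 5 genes of the polymerase list are orange squares. accD (purple) and clpP (green) lie near the middle with rpoC1 and rpoC2, while ycf1 and ycf2 lie higher and rpoB at 0.0035.

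Of the 4 flanking genes, 1 passed the threshold, against 33.9% of all genes called in either direction and 24.1% called lower. Next to clpP, the rps12 entry was lower in nucleoids, with 106 ± 9 in nucleoids (SD, n = 10) and 142 ± 25 in naked DNA (SD, n = 11). The fitted log2 difference of -0.41 (SE 0.08; limma, adjusted p = 0.000892) also passed among deep libraries (-0.28, adjusted p = 0.0207). On the other side, psbB had a fold change of -0.14 (adjusted p = 0.101). Next to accD, rbcL had -0.18 (adjusted p = 0.112) and psaI, of 114 bp, had 0.39 (SE 0.22, adjusted p = 0.142). Among deep libraries these uncalled values were 0.0035 for psbB, -0.021 for rbcL and 0.035 for psaI. Downstream of the genes, the 300 bp flank of accD had a fold change of 0.28 (limma, adjusted p = 0.12) and that of clpP -0.11 (adjusted p = 0.224), which includes the rps12 entry. The 150 bp downstream of clpP had 0.41 (adjusted p = 0.076).

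Across libraries the signal of accD varied most like that of petB, the gene of cytochrome b6, rpl16, which encodes a ribosomal protein, and psbI, which encodes a small photosystem II subunit. Pearson's r of deviations from the fraction means was 0.86, 0.79 and 0.79 over 21 libraries, against a median of 0.37 over all genes. For clpP the highest were psbK and psbT, of photosystem II, and atpF, of the ATP synthase, with 0.94, 0.93 and 0.93, against a median of 0.39. Between accD and clpP it was 0.70. These are descriptions over libraries that share depth and unevenness.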

How the data were processed

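ptATAC-seq libraries of nucleoids and naked plastid DNA were analysed. The authors deposited 1 table of whole-number counts per TAIR10 plastid position, 1 column per library, per the file headers, with totals not scaled between libraries; 0 columns were unmatched. The submitters' processing notes name Trim Galore 0.4.1, Bowtie2 2.2.8.9 and bedtools 2.25.0. Duplicate removal and any shift of read ends to the Tn5 site are not given in the sources used here; if duplicates were kept, counting error is understated. The floor (3 counts) covers counting error only. Intervals of fold changes come from the limma fit and, like its p-values, measure the spread between libraries. Depth is in the report.

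Gene limits came from RefSeq assembly TAIR10.1 (129 plastid entries, 112 genes after merging copies, 15 with 2 copies) and are not printed, since the build name differs; mirrored counts of the repeats matched best at the sum of positions of the ndhB copies in that table (238649, r = 0.93, next best 0.23 of 301 sums). That table gives no strand, so directions of accD and clpP are textbook knowledge, both flanks of every gene were tested in place of upstream flanks, and the planned test of clpP exons against introns was not run. Counts were analysed as signal per region, with voom as an alternative, and a count test with edgeR was not run.

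Log2(signal + 1) was tested with limma 3.58.1 (R 4.3.3), two-sided, Benjamini-Hochberg over 112 genes, 223 flanks or 3083 windows with a mean scaled count of at least 10. The fit was checked on simulated counts with independent noise and the same profile in every library apart from set changes. That check does not cover differences in unevenness between libraries. Ratios within a library were compared by permutation (100000 resamples) adjusted over 3. Named genes were accD, clpP, their neighbours, 5 polymerase-list genes, and the 3 genes most correlated with each. Members, lists and tests were chosen with earlier results of these data known.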

Additional observations from a re-analysis of the deposited data

Results flagged for a closer look

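Among 7 values tested in the 10 nucleoid libraries, 2 had 1 library far from the rest by Dixon's test, which by chance picks about 1 in 20 groups, and both came from nucleoid replicate 11, the shallowest nucleoid library. Its signal in the 300 bp upstream of accD was 37.1 percent of the genome mean, whereas the other nucleoid libraries had 53.1 to 71.2. Its log2 ratio of accD to that upstream DNA was 1.21, whereas the others had 0.43 to 0.82. The values share the same upstream counts.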

How the results depend on the processing

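Alternatives gave these values where a call or direction changed; causes were not tested. The accD gene body had 0.065 with a depth covariate, 0.046 among deep libraries, 0.11 with the replicate block, 0.055 scaled to the large single copy region, 0.084 without naked replicates 9, 10 and 11 and 0.097 with voom, all not past the threshold (limma, adjusted p from 0.0523 to 0.309), and -0.035 with median scaling, where clpP had -0.025. The large single copy scaling and the omission of those 3 libraries were added after seeing the data. Leaving out single libraries gave 0.094 to 0.13 for accD and 0.096 to 0.15 for clpP, 0.30 to 0.45 and 0.23 to 0.33 upstream, -0.32 to -0.21 and -0.18 to -0.13 for gene over upstream, -0.032 to 0.0040 for accD over clpP, and 8 to 29 called windows. Upstream of clpP the fold change was 0.70 with 150 bp, and clpP over its upstream was then -0.57. Of the 78 windows, 3 were called with a depth covariate, 2 among deep libraries and 6 without naked replicates 9, 10 and 11. The shares of all windows called in these settings were 12.5%, 7.72% and 16.8%. The accD over clpP difference was 0.019 with a depth covariate, 0.017 among deep libraries, 0.0011 with the replicate block and 0.031 without naked replicates 9, 10 and 11.

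Replicate numbers pair no samples by the labels, and same-numbered libraries had correlated deviations over 0.1 in 9 of 10 pairs (-0.017 to 0.77), with 1 of 10 nucleoid libraries closest to its own number. With the replicate block, accD upstream had 0.34 (adjusted p = 0.0149), clpP upstream 0.24 (adjusted p = 0.0275), accD over upstream -0.22 (exact permutation, adjusted p = 0.0293) and clpP over upstream -0.13 (adjusted p = 0.0498), all 4 past the threshold that they miss without it, and 30 windows were called, with 40.9% of all windows. Of all genes, 11 were called higher and 27 lower without any alternative. These counts were 5 and 28 with large single copy scaling and 1 and 30 with median scaling. They were 1 and 19 with log2 depth as a covariate and 1 and 14 among deep libraries. The lowest count in any library was 816 over accD and 84 in the 300 bp upstream of clpP, which limits what short windows can show. A count test with edgeR and the planned comparison of clpP exons with introns were not run.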
